A study of Solanum lycopersicum with 27 samples.

Results

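The genes described here are 252 tomato genes whose transcript level after 3 h stood near its starting level at 4°C and well below it at 24°C, in shoots and in roots alike. They were chosen by measured values: among the 18970 nuclear genes listed for both organs, a gene was taken if, in each organ, its mean normalised value before treatment (T0) was at least 50, its 3 h mean at 24°C was at most 0.5 of T0 and its 3 h mean at 4°C was from 0.67 to 1.5 of T0. In shoots 559 genes met these conditions and in roots 1072. All 3 h values and the T0 values of replicates 1 to 3 were therefore used in the choice and are given as a description without a test.

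Seedlings of the tomato variety M82, grown hydroponically under long days, were moved in the morning to containers at 4°C or at 24°C, and RNA was sequenced from pools of 4 seedlings. The groups were shoots after 30 min at 4°C and at 24°C, shoots after 3 h at 4°C and at 24°C, shoots at T0, roots after 3 h at 4°C and at 24°C, and roots at T0, with 3 libraries each except for shoots at T0, which had 6. The labels name no genotype other than M82, and the 24°C plants were moved to fresh containers as well. Only the 30 min shoot libraries took no part in choosing the genes, together with shoot T0 replicates 4 to 6, which the study's run summary places with the 30 min libraries in another sequencing run than T0 replicates 1 to 3.

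Many plant transcripts cycle over the day, and those that peak around dawn decline through the morning. Others are raised by touch, wounding or transfer and decline once the disturbance is over. Calcium signals, jasmonates and WRKY factors are central to such responses: a calcium rise is read by calmodulin-like proteins and kinases and removed by pumps and exchangers, while jasmonate is made from lipids by lipoxygenases, releases MYC2 from its JAZ repressors and is broken down by CYP94 enzymes. Tomato is a chilling-sensitive plant.

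Certain libraries stood apart in these genes. The median of the 252 genes, each relative to its mean at T0 replicates 1 to 3, was 0.711 in shoot T0 replicate 3 and 0.615 in replicate 6, against 0.984 to 1.18 in the other 4 shoot T0 libraries. Over the 15363 genes with a T0 mean of at least 50 in both organs, deviations from the mean of each T0 set correlated at 0.469 between replicates 1 and 4, 0.405 between 2 and 5 and 0.700 between 3 and 6, and among T0 libraries each correlated best with its counterpart. Replicate 3 of 30 min at 4°C also correlated with T0 replicate 3 (0.673) and T0 replicate 6 (0.529). The labels number the 6 as separate replicates. The study's methods list every T0 shoot library as an RNA extraction of its own. Neither says whether the second set came from other plants, so T0 replicates 4 to 6 may not be independent of those that chose the genes. As a check of organ, organelle transcripts made up 0.258 to 6.80% of each shoot library and 0.133 to 0.185% of each root library. These shares cover unlike sets, 167 organelle features in shoots and 81 in roots. Within shoots the share was 0.418 to 0.752% in T0 replicates 1 to 3 and 2.21 to 2.46% in T0 replicates 4 to 6.

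After 3 h the 252 genes stood, at the median, at 104% of T0 in shoots at 4°C and 31.9% of T0 in shoots at 24°C. In roots the corresponding medians were 93.3% at 4°C and 25.4% at 24°C. Their summed values took 1.69 to 2.107% of all values in the shoot libraries at 4°C, against 0.536 to 0.540% at 24°C. In roots the shares were 3.40 to 3.73% at 4°C and 0.776 to 0.868% at 24°C. At 24°C 75 of the genes were at or below 0.25 of T0 in shoots and 124 in roots, and 12 were at or below 0.1 in both organs. Within the window that the choice allowed, the 4°C mean was above T0 for 137 genes in shoots and for 88 in roots. Every 3 h 4°C library lay above every 3 h 24°C library in 251 of the 252 genes in shoots, and in 251 in roots. Every T0 library of replicates 1 to 3 lay above them in 236 and 249. The choice largely fixed such separation, so it is no added support where single genes show it below.

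**Figure D1:**
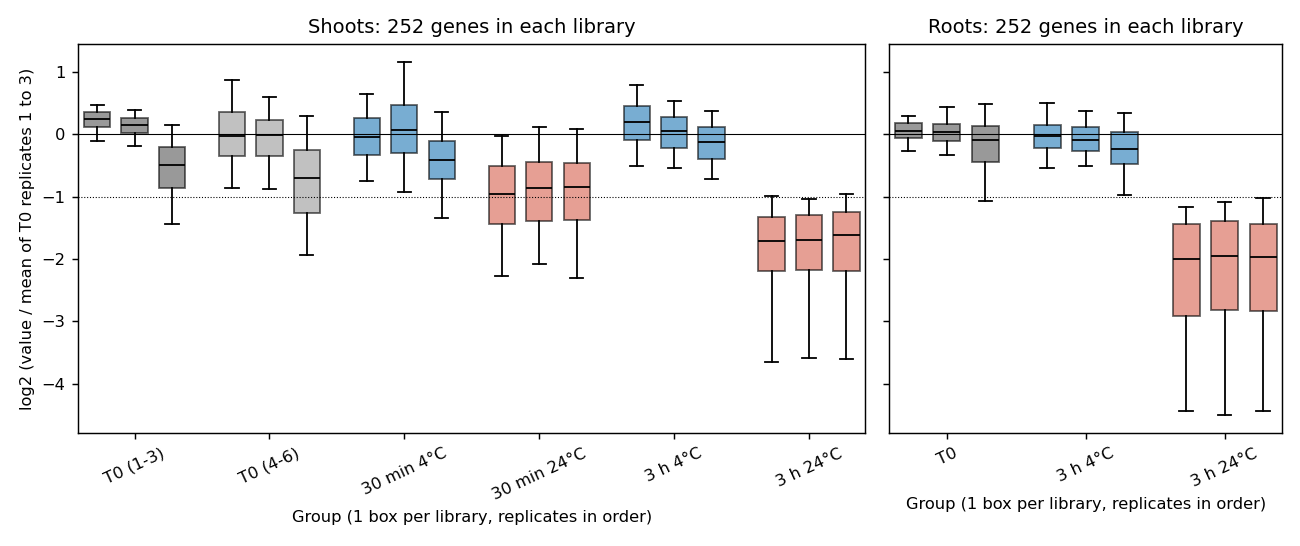
Values of the 252 genes in each library relative to the gene's mean at T0 replicates 1 to 3 of that organ, on a log2 scale, with shoots on the left and roots on the right. Each box is 1 library, with the median, the quartiles and whiskers from the 5th to the 95th percentile; the 30 min 24°C medians lie between 0.514 and 0.557 of T0 and those of 30 min 4°C between 0.755 and 1.05.

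Some well-known genes lay close to the limits of the choice. MYC2 (Solyc10g009290) entered with a root value at 24°C of 0.492 of T0, and EDF1/TEM1 (Solyc05g009790), which in Arabidopsis delays flowering, entered with a shoot value at 4°C of 1.4997 of T0. NCED3 (Solyc07g056570), the key enzyme of abscisic acid synthesis, stayed out because its shoot value at 4°C was 1.52 of T0, and the core clock factor CCA1/LHY (Solyc10g005080) stayed out because its shoot value at 4°C was 0.659 of T0.

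The deepest decline over both organs was that of DDF1 (Solyc08g007830), which in Arabidopsis is a relative of the CBF factors. It had 7145, 5649 and 5328 in roots after 3 h at 4°C, against 4.07, 4.43 and 49.1 at 24°C and 4770.5, 5659 and 2841 at T0 (normalised values of the 3 libraries, as in all such triplets below). In shoots the same gene had 248, 151 and 94.5 at 4°C, 10.04, 3.52 and 0.225 at 24°C and 216, 115 and 60.5 at T0. The 24°C libraries thus lay below every other library in both organs, and root replicate 3 at 24°C was above its partners. The next deepest, BHLH92 (Solyc09g083360), a helix-loop-helix factor that in Arabidopsis responds to salt and osmotic stress, had 691, 458 and 212 in roots at 4°C, 7.16, 8.79 and 7.40 at 24°C and 663, 876 and 212 at T0. The 10 deepest also held ACA2, WRKY40, CML24/TCH2 and BCH1 (Solyc03g007960), a beta-carotene hydroxylase, which are described with their groups, and 4 genes without a name in the sources used here. Of these 4, Solyc10g005480 had 436, 337 and 244 in shoots at 4°C, 18.7, 20.9 and 13.3 at 24°C and 406, 406 and 233 at T0.

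Genes of calcium signalling were the best represented of the lists examined: 9 of the 21 listed genes measured in both organs were among the 252. Of all genes listed for both organs, 252 of 18970 were. The lists were chosen with earlier results of these data known, so their shares are no test of a theme. CML24/TCH2 (Solyc02g091500), a calmodulin-like protein known in Arabidopsis as touch-induced, had 2782, 2505 and 2166 in shoots after 3 h at 4°C, 147, 141 and 133 at 24°C and 1984, 1844 and 2577 at T0. In roots it had 5149, 4961 and 4481 at 4°C, 425, 367 and 362 at 24°C and 5531, 5008 and 7010.0 at T0. Replicates were tight, and the 24°C libraries were about an order of magnitude below the rest in both organs. ACA2 (Solyc02g064680), a calcium pump, had 51807, 49207 and 31432 in roots at 4°C, 1807, 1743 and 1527 at 24°C and 38267, 37694 and 41473 at T0. Its shoot values were 24858, 21063 and 18312 at 4°C, 884, 802 and 769.8 at 24°C and 19498, 18705 and 6672 at T0, the last library being well below the other T0 libraries and above all those at 24°C.

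A second gene named ACA2 (Solyc02g092450) stood at 43.5% of T0 in shoots and 10.4% in roots at 24°C. CIPK11 (Solyc06g082440), a kinase that works with calcium sensors of the CBL type, differed between organs in its depth: 3.83% of T0 remained in roots at 24°C and 36.3% in shoots. The calmodulin-like CML42 (Solyc10g074740) had 14914, 14718 and 14781 in roots at 4°C, 2354, 2504 and 2334 at 24°C and 16944, 16384 and 17837 at T0, with no overlap between 24°C and the rest. The exchanger CAX11 (Solyc01g098800) and the channel CNGC1 (Solyc05g050380) remained at 20.3% and 38.9% of T0 in roots at 24°C. Both tomato genes named CPK16, for a calcium-dependent kinase, were included, at 24.6% (Solyc02g083850) and 28.2% (Solyc03g033540) of T0 in roots at 24°C.

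Jasmonate genes included enzymes, the central regulator and its repressors. Of 10 listed genes of synthesis, breakdown and response 4 were among the 252, and of 7 JAZ and TIFY repressors 2 were. LOX3 (Solyc03g122340), a lipoxygenase at the entry to synthesis, had 16934, 13771 and 5917 in roots at 4°C, 328, 340.1 and 442 at 24°C and 15899.8, 15699 and 18107 at T0. In shoots its values were 13409.7, 9319 and 6356 at 4°C, 1347, 1417 and 1458 at 24°C and 8469, 8681 and 2645 at T0. The root difference between 24°C and T0 was the larger, and the 4°C libraries of both organs were uneven but above all 24°C libraries.

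CYP94B1 (Solyc07g006890), which oxidises active jasmonate and so removes it, followed the same course: in shoots 5845, 4959 and 3685 at 4°C, 202, 223 and 200.1 at 24°C and 4218, 4033 and 1902 at T0. The related CYP94B3 (Solyc03g111300) was scarce in shoots, at 118, 36.2 and 30.1 at 4°C, 34.1, 7.88 and 14.7 at 24°C and 91.2, 64.4 and 10.1 at T0, where all 3 groups overlapped. In roots it stood at 2.79% of T0 at 24°C. MYC2, the factor that carries out most jasmonate responses, had 342, 259 and 147 in shoots at 4°C, 92.7, 93.7 and 101 at 24°C and 419.9, 455 and 128 at T0. In roots the lowest of its T0 libraries, at 101, was below all 24°C libraries, of which the lowest was 135.

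The repressors named JAZ1 showed a like pattern in roots. The gene Solyc07g042170 had 16291, 14083 and 14536 in roots at 4°C, 1717, 1719 and 1803 at 24°C and 20069.5, 21372 and 10131 at T0. Its counterpart Solyc03g122190 had 6967, 5183 and 2557 at 4°C, 381, 442 and 489 at 24°C and 8045, 9813 and 2526 at T0. Both were lower in every 24°C library than in any other root library. Another JAZ1 gene (Solyc12g009220) and the synthesis enzyme AOS (Solyc04g079730) stood at 0.14 and 0.13 of T0 in shoots at 24°C and exceeded the upper limit at 4°C, at 3.08 and 2.46 of T0 in shoots, and were not among the 252.

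**Figure D2:**
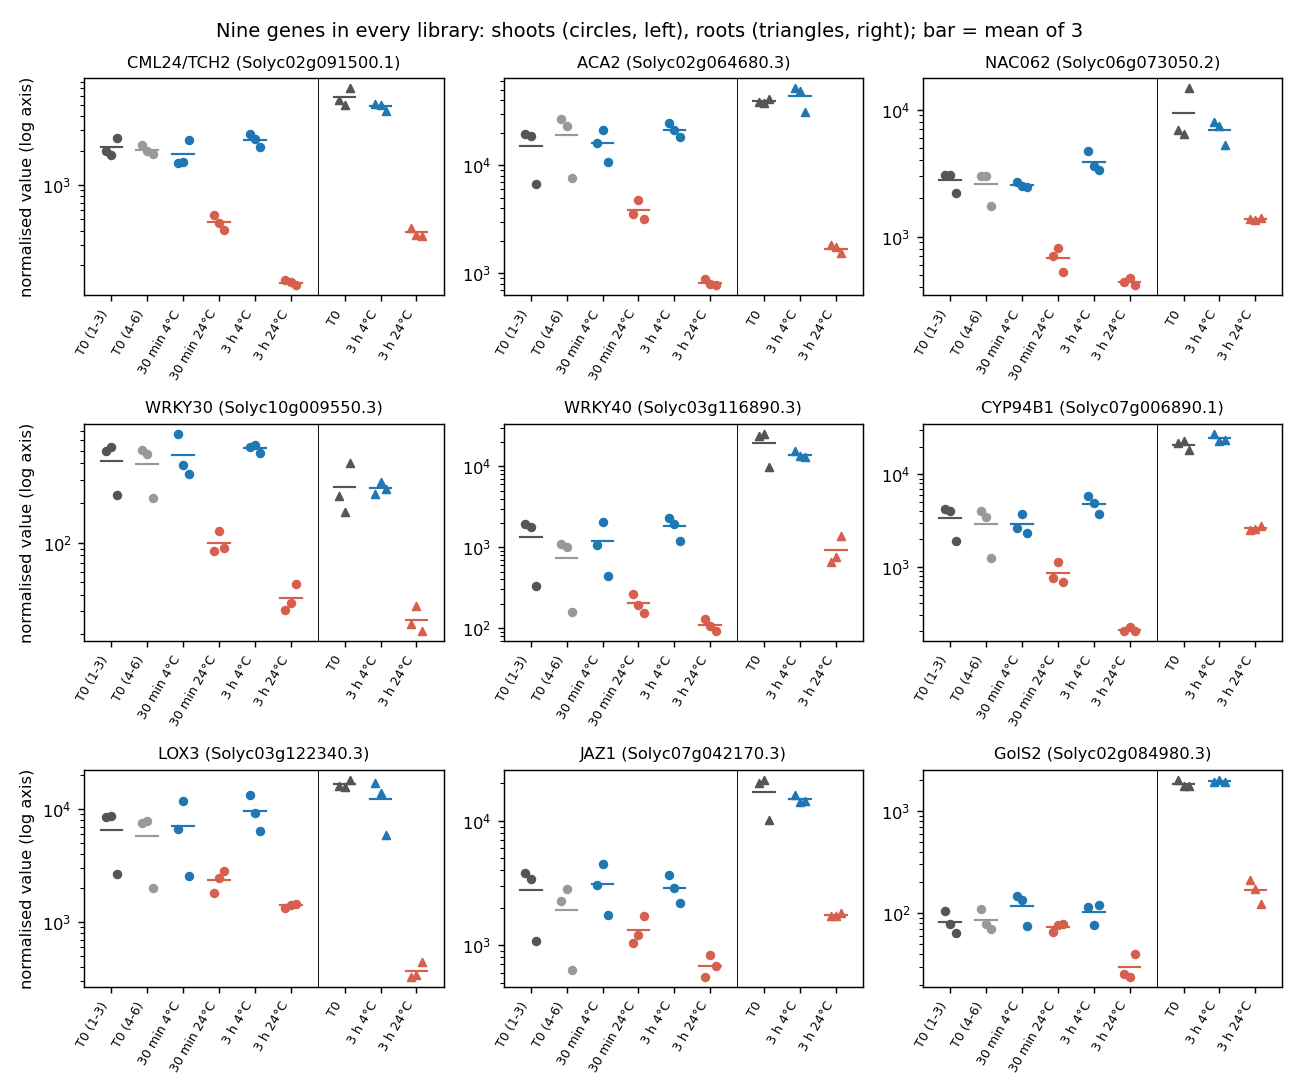
Normalised values of 9 of the genes in every library, on a log axis: shoots as circles on the left of the line, roots as triangles on the right, with T0 in grey (replicates 4 to 6 lighter), 4°C in blue and 24°C in red, and a bar at each mean of 3. The 3 h mean at 24°C is the lowest mean in each organ for all 9. In ACA2, WRKY30, WRKY40, CYP94B1, LOX3 and JAZ1, shoot T0 replicates 3 and 6 lie well below their partners.

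Among transcription factors, whose lists came from the study's own table of cold-responsive factors in these samples and so carry no independent evidence of direction, the 252 held 4 of 25 WRKY genes, 2 of 53 ERF genes, 2 of 30 bHLH, 2 of 20 GRAS, 2 of 23 GARP and SHAQKYF MYB-like, 1 of 27 MYB and 1 of 14 NAC. None of 21 C2H2 zinc finger or 11 heat stress factors was included, and outside the factors none of 3 genes of ethylene synthesis, 9 of abscisic acid, 10 of wall loosening or 5 of phenylpropanoid synthesis was. WRKY40 (Solyc03g116890), a repressor of defence and abscisic acid responses in Arabidopsis, had 15538, 13307 and 12891 in roots at 4°C, 658, 747 and 1372 at 24°C and 23633, 25089 and 9848 at T0. WRKY30 (Solyc10g009550) had 535, 548 and 479 in shoots at 4°C, 30.5, 34.8 and 48.3 at 24°C and 495, 529 and 231 at T0. In both genes the 4°C and T0 ranges overlapped and the 24°C range lay far below. WRKY70 (Solyc09g015770), which in Arabidopsis balances salicylate against jasmonate defence, was much lower at 24°C in roots (3.6% of T0) than in shoots (37%), and WRKY23 (Solyc01g079260) was at 30.3% in roots and 26.8% in shoots.

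NAC062 (Solyc06g073050), a membrane-tethered factor that in Arabidopsis is released by cold, had 4723, 3619.8 and 3316 in shoots at 4°C, 436, 468 and 412 at 24°C and 3063, 3059 and 2195 at T0. MYB43 (Solyc11g011050), related to regulators of the secondary wall, had 288, 308 and 292 at 4°C, 22.7, 39.9 and 28.9 at 24°C and 319, 339.6 and 386 at T0. In both, the 24°C libraries lay below all others. The GRAS genes SCL13 (Solyc05g054170) and SCL14 (Solyc06g076280) stood at 27.7% and 37.5% of T0 in shoots at 24°C, and an ERF gene without a symbol (Solyc08g080290) at 4.41% of T0 in roots.

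Kinases, receptors and protein turnover were represented by single genes. The list of receptor kinases and immune receptors had 3 of 18 genes included, CRK6 (Solyc03g119340), APK2B (Solyc01g010660) and SOBIR1 (Solyc06g071810), a partner of receptor-like proteins in immunity. CRK6 had 4657, 4318 and 3217 in roots at 4°C, 137, 149.9 and 192 at 24°C and 3664, 3393 and 5694 at T0, a far wider range than in shoots, where 43.1% of T0 remained at 24°C. Of 10 genes of the MAP kinase cascade 1 was included, MAPKKK5 (Solyc04g079400), and of 16 ubiquitin ligases 1, XBAT31 (Solyc06g076050), at 13.4% and 13.6% of T0 in roots at 24°C.

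Both enzymes that lead to raffinose were among the 252, out of 6 genes listed for cryoprotectant synthesis. Galactinol synthase GolS2 (Solyc02g084980), which makes the galactosyl donor, had 1911, 2011 and 1908 in roots at 4°C, 210.4, 170.3 and 122 at 24°C and 1997, 1769 and 1764 at T0. Raffinose synthase RS (Solyc02g086530) had 138, 138 and 135 at 4°C, 17.8, 16.5 and 19.5 at 24°C and 185, 207 and 79.0 at T0. For both, every 4°C root library lay above every 24°C root library, as in 251 of the 252 genes. BCH1 stood at 3.35% of T0 in roots at 24°C, and the mitochondrial alternative oxidase AOX1A (Solyc08g075540) and carrier DIC2 (Solyc11g010500) at 15.6% and 16.8%.

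None of the 11 clock genes listed in the study was among the 252, nor any of the 3 CBF genes, the cold-induced activators best known from acclimation. In shoots CCA1/LHY stood at 0.659 of T0 at 4°C and 0.101 at 24°C, and RVE8 (Solyc10g084370) at 0.91 and 0.14, but RVE8 kept 0.54 of T0 in roots at 24°C, just over the limit. Their relative RVE7 (Solyc03g098320, also EPR1), a MYB-like factor of the same family that is not in the clock list, was included, with 513, 603 and 539 in roots at 4°C, 89.0, 91.7 and 89.5 at 24°C and 568, 567 and 557 at T0. The root replicates of RVE7 were close together in every group. The CBF genes were outside the window at 4°C: in roots CBF1 (Solyc03g026270) was at 0.31 of T0, and in shoots CBF2 (Solyc03g124110) and CBF3 (Solyc03g026280) were at 4.16 and 15.2 of T0.

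The 252 genes differed among themselves in how even they were between replicates. Shoot T0 replicate 3 was at or below 0.5 of the mean of replicates 1 and 2 in 81 genes (32.14%), against 2.096% of the 15363 genes with a T0 mean of at least 50 in both organs. Replicate 6 was at or below 0.5 of the mean of replicates 4 and 5 in 81 genes as well (32.14%, against 1.99%). Replicate 3 of 30 min at 4°C was as low relative to its partners in 44 genes (17.5%, against 1.59%). In the 24°C shoot groups it was so in 2 genes at 30 min (0.794%, against 0.267%) and 4 genes at 3 h (1.59%, against 0.202%). In shoots after 3 h at 4°C it was so in 5 genes (1.98%, against 0.150%). In roots it was so in 31 genes at T0 (12.3%, against 2.48%). After 3 h in roots it was so in 12 genes at 4°C (4.76%, against 0.384%) and 6 at 24°C (2.38%, against 0.280%). Across the 252 genes the log2 ratio of shoot T0 replicate 3 to its partners correlated with that of shoot T0 replicate 6 (Pearson r = 0.870). It also correlated with that of shoot replicate 3 of 30 min at 4°C (r = 0.841) and of root T0 replicate 3 (r = 0.512). Genes are not independent replicates and no test was made.

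Low in both T0 replicates 3 and 6 were 64 of the genes. They included WRKY40, LOX3, MYC2, both JAZ1 genes, CYP94B1, CYP94B3, BHLH92, DDF1 and ACA2 (Solyc02g064680). The lowest ratio at replicate 6 was that of CYP94B3, whose shoot T0 values were 91.2, 64.4, 10.1, 109, 63.1 and 4.92 in replicates 1 to 6. In another 45 genes replicates 3 and 6 were close to their partners in both sets, among them SCL14, CRK6, RVE7, GRX480 (Solyc07g053550), a glutaredoxin that binds TGA factors, and STO (Solyc06g073180), a B-box protein of light signalling. SCL14, for example, had 825, 832, 867, 906, 940.3 and 854 in the 6 shoot T0 libraries. At 24°C after 3 h the uneven genes were at a median 24.0% of T0 in shoots and 15.0% in roots, and the even genes at 32.3% and 33.0%. What set replicates 3 and 6 apart was not tested.

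The difference between 4°C and 24°C at 30 min came from libraries that the choice had not used, while its error was estimated over all 18 shoot libraries, those that chose the genes included. By limma on log2(value + 1), with p-values adjusted over all 20535 genes tested in shoots and a threshold of 0.01, 84 of the 252 genes were higher at 4°C than at 24°C (33.3%), where 2.85% of all genes tested were. By the same test none was lower, where 3.22% of all genes tested were; 3 of the 252 were lower at an unadjusted p below 0.05. With only T0 replicates 4 to 6 and the 30 min libraries in the fit, 59 of the 252 genes were higher and 0 lower, and 693 of all genes tested were called in either direction, against 1246 with all 18. The median log2 difference, 4°C minus 24°C, was 0.79 over the 252 genes and -0.07 over all genes tested. In 161 of the 252 every 4°C library exceeded every 24°C library, as was so for 7.97% of all genes tested. The number of genes called depended on single libraries: it was 53 without replicate 1 of 30 min at 4°C, 53 without replicate 1 and 54 without replicate 3 of 30 min at 24°C, and 168 with shoot T0 replicates 3 and 6 and 30 min 4°C replicate 3 all left out. Organelle transcripts made up 4.14 to 6.35% of the 30 min libraries at 4°C and 0.258 to 0.709% at 24°C, and rescaling over nuclear genes gave 86 genes called higher, with a median difference of 0.85.

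At 30 min the 24°C libraries were further from T0 than the 4°C libraries at the median. Against shoot T0 replicates 4 to 6, 77 of the 252 genes were lower after 30 min at 24°C (30.6%, against 4.52% of all genes tested) and 1 was higher (against 3.96%). After 30 min at 4°C 2 were lower (against 5.17%) and 3 higher (against 1.93%). The median log2 differences from T0 were 0.14 at 4°C and -0.64 at 24°C. Both comparisons share the T0 libraries, which were extracted apart from those used in the choice but may come from the same plants. Without T0 replicate 4 the number lower at 24°C was 47, and without T0 replicates 3 and 6 and 30 min 4°C replicate 3 it was 154. Of the 84 genes higher at 4°C than at 24°C, 60 were also lower than T0 at 24°C. Both calls use the same 30 min 24°C libraries, so this overlap is partly built in and is not separate evidence.

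**Figure D3:**
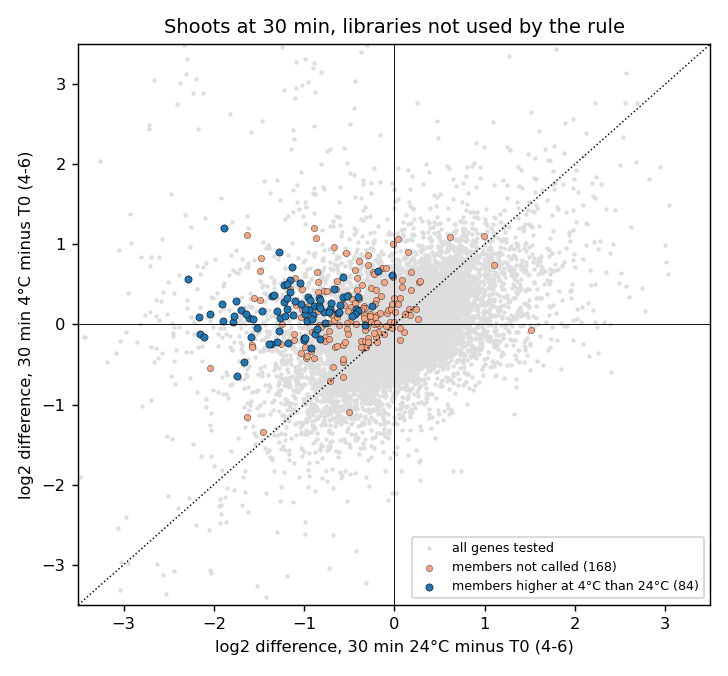
Log2 differences from shoot T0 replicates 4 to 6 after 30 min, with 24°C on the horizontal and 4°C on the vertical axis; grey points are all genes tested, blue points the 84 genes higher at 4°C than at 24°C (limma adjusted p below 0.01) and light orange points the other 168. The 252 genes lie above the dotted line of equality in 240 cases, around 0 on the vertical axis.

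Of the 9 calcium genes 4 were higher at 4°C at 30 min and 5 did not pass, beside 33.3% of the 252 genes and 2.85% of all genes tested. Of the 12 other genes on the calcium list 1 was higher. Lists differed in this. Of the WRKY genes 1 of 4 included and 9 of 21 others were higher, and of the ERF genes 1 of 2 and 22 of 51. Of the receptor kinases and immune receptors 2 of 3 included and 3 of 15 others were. A higher value at 4°C was thus not particular to the included genes of a list, and these shares were not tested. CML24/TCH2 had 1561, 1581 and 2455 at 4°C, against 547, 467 and 409 at 24°C, a log2 difference of 1.95 ± 0.16 (SE, limma adjusted p = 6.77e-08). ACA2 (Solyc02g064680) had 16234, 21434 and 10627 at 4°C, against 3506, 4767 and 3208 at 24°C (log2 difference 2.04 ± 0.40 SE, limma adjusted p = 0.00207). In both the 2 groups were well separated. The others that were higher were CML42 (log2 difference 1.39 ± 0.16 SE, limma adjusted p = 9.37e-06) and CAX11 (log2 difference 0.77 ± 0.18 SE, limma adjusted p = 0.00813). CIPK11, at 504, 721 and 292 at 4°C against 264, 294 and 305 at 24°C, had overlapping groups (log2 difference 0.72 ± 0.30 SE, limma adjusted p = 0.137).

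Of the jasmonate genes only CYP94B1 passed the test, with 2653, 3743 and 2313 at 4°C against 763, 1120.0 and 684 at 24°C (log2 difference 1.76 ± 0.35 SE, limma adjusted p = 0.00233). LOX3 had 6644, 11844 and 2556 at 4°C and 1799.7, 2476 and 2816 at 24°C (log2 difference 1.33 ± 0.53 SE, limma adjusted p = 0.122). MYC2 had 535, 982 and 253 at 4°C and 299.6, 292 and 365 at 24°C (log2 difference 0.68 ± 0.46 SE, limma adjusted p = 0.393). In both, 4°C replicate 3 lay inside or below the 24°C range, and the other 2 lay above it. The JAZ1 gene Solyc03g122190 was at 3891, 5765 and 1497 at 4°C and 1166, 832 and 1133 at 24°C (log2 difference 1.64 ± 0.60 SE, limma adjusted p = 0.0876), and Solyc07g042170 did not pass either (log2 difference 1.16 ± 0.49 SE, limma adjusted p = 0.142). CYP94B3, with 38.8, 326 and 31.96 at 4°C and 49.4, 2.46 and 7.06 at 24°C, had overlapping groups (log2 difference 2.75 ± 1.14 SE, limma adjusted p = 0.134). All 6 jasmonate genes were among the 64 that were uneven between replicates at T0. Of those 64 genes 11 were higher at 30 min, with a median log2 difference of 1.08 and a median SE of 0.42, and of the 45 even genes 16 were, with a median difference of 0.39 and a median SE of 0.14.

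Among the factors named here that passed, the widest difference was that of DDF1, with 217, 362 and 99.2 at 4°C against 22.3, 30.3 and 16.6 at 24°C (log2 difference 3.09 ± 0.69 SE, limma adjusted p = 0.00556). NAC062 had 2693, 2505 and 2474 at 4°C against 704, 809.5 and 521 at 24°C (log2 difference 1.94 ± 0.19 SE, limma adjusted p = 1.11e-06). MYB43 had 289, 159 and 363 at 4°C against 33.95, 69.2 and 61.8 at 24°C (log2 difference 2.26 ± 0.30 SE, limma adjusted p = 3.90e-05). In all 3 the ranges were far apart. WRKY30 was higher as well, with 668, 388 and 334 at 4°C against 86.3, 122 and 90.2 at 24°C (log2 difference 2.16 ± 0.33 SE, limma adjusted p = 1.75e-04), whereas WRKY40, with 1067, 2041 and 444 at 4°C against 265, 194 and 153 at 24°C, did not pass although its groups did not overlap (log2 difference 2.31 ± 0.67 SE, limma adjusted p = 0.031). SCL14 was higher by a smaller amount (log2 difference 0.82 ± 0.12 SE, limma adjusted p = 7.82e-05), and SCL13, BHLH92, WRKY23 and WRKY70 did not pass (limma adjusted p = 0.192, 0.135, 0.0536 and 0.0198).

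**Figure D4:**
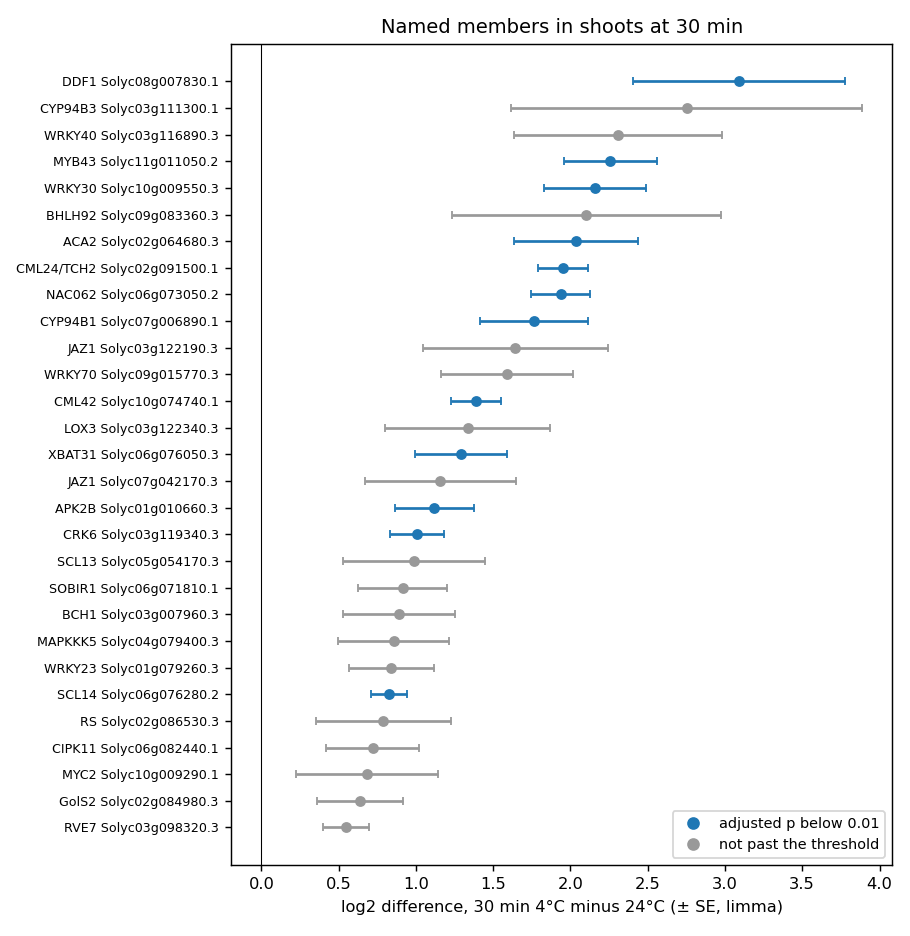
Log2 difference between 4°C and 24°C in shoots at 30 min for 29 named genes, with the standard error from limma; blue points have an adjusted p below 0.01, grey points do not. All 29 points lie to the right of 0, as did 240 of the 252 genes. Of the 29, 12 are blue, beside 33.3% of the 252 genes and 2.85% of all genes tested.

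CRK6, APK2B and XBAT31 were higher at 4°C with log2 differences of 1.01 ± 0.18 (SE, limma adjusted p = 6.86e-04), 1.12 ± 0.26 (SE, limma adjusted p = 0.00676) and 1.29 ± 0.30 (SE, limma adjusted p = 0.00715). SOBIR1 and MAPKKK5 did not pass (limma adjusted p = 0.0451 and 0.143). GolS2 had 146, 135 and 75.3 at 4°C and 65.0, 76.8 and 77.8 at 24°C (log2 difference 0.64 ± 0.28 SE, limma adjusted p = 0.162), and RS had 108, 164 and 44.2 at 4°C and 62.1, 52.7 and 45.4 at 24°C (log2 difference 0.79 ± 0.44 SE, limma adjusted p = 0.284). Both pairs of groups overlapped, and a 30 min difference in the raffinose enzymes was not detectable here. Leaving out single 30 min libraries ended the calls of ACA2, CYP94B1, DDF1, APK2B and XBAT31, with limma adjusted p of 0.0109 to 0.0382 in those fits, and ended none of those of CML24/TCH2, CML42, NAC062, MYB43, WRKY30, SCL14 and CRK6. The call of CAX11 was not followed in this way. RVE7 was at 978, 775 and 1179 at 4°C and 783, 525 and 696 at 24°C and did not pass (log2 difference 0.55 ± 0.15 SE, limma adjusted p = 0.0188).

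Not all of the 252 genes took this course. The log2 difference at 30 min was below 0 in 12, lowest in Solyc10g008160, which had 104, 50.9 and 158 at 4°C and 339, 245 and 278 at 24°C (log2 difference -1.58 ± 0.40 SE, limma adjusted p = 0.0124). Solyc12g057160 was the gene higher than T0 at 30 min at 24°C, and it was higher at 4°C too, with log2 differences from T0 of 0.74 at 4°C and 1.10 at 24°C. The 2 genes lower than T0 at 4°C were also lower at 24°C: ZF14 (Solyc02g090740), with log2 differences of -1.34 at 4°C and -1.46 at 24°C, and Solyc06g051930, with -0.66 at 4°C and -0.57 at 24°C. Of the genes called at 30 min, the smallest difference between temperatures was in Solyc03g007370, with 2300.3, 2323 and 2329 at 4°C against 1869, 1806 and 1899 at 24°C (log2 difference 0.32 ± 0.05 SE, limma adjusted p = 6.16e-04), whose replicates varied little. These single genes were picked after their values were seen.

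Genes that met the conditions in 1 organ only serve for comparison. Among the 252 genes, which met them in both, 84 were higher at 4°C than at 24°C after 30 min (33.3%) and 0 lower, with a median log2 difference of 0.79. Of 307 genes that met them in shoots but not in roots, 55 were higher (17.9%) and 2 lower, with a median of 0.37. Of 819 tested genes that met them in roots but not in shoots, 114 were higher (13.9%) and 17 lower, with a median of 0.31. Against T0 replicates 4 to 6, 30.6% of the 252 genes were lower at 24°C, beside 25.7% of the genes of shoots only and 12.8% of those of roots only. The differences between these gene groups were not tested.

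Depth of the decline was related only loosely between organs. At 24°C the ratio to T0 was lower in roots than in shoots for 161 genes and lower in shoots for 91, and the log2 ratios of the 2 organs correlated at Pearson r = 0.479 and Spearman rho = 0.371 over the 252 genes. This is a description across genes, in which the choice had left out all ratios above 0.5, and it carries no test. Roots went further in CIPK11, CRK6, WRKY70 and LOX3 (above), while AGP20 (Solyc12g007050), an arabinogalactan protein of the cell wall, was at 3.92% of T0 in shoots and 24.8% in roots. Levels were normalised separately in each organ and are not compared between organs.

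**Figure D5:**
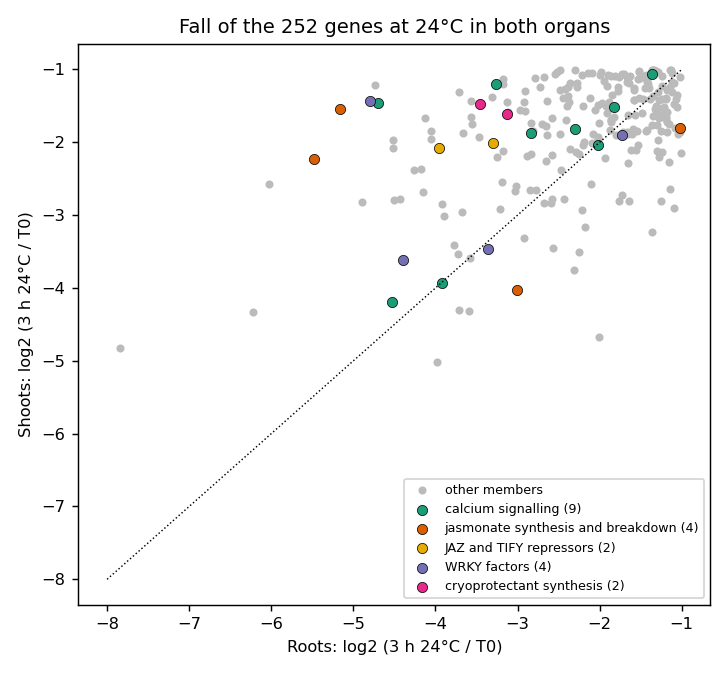
Log2 ratio of 3 h at 24°C to T0 for the 252 genes, roots on the horizontal and shoots on the vertical axis, with the dotted line of equality; coloured points are genes of 5 lists and grey points all others. More points (161) lie left of the line, where the ratio is lower in roots.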

How the data were processed

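RNA from 18 shoot and 9 root libraries was analysed. The authors aligned reads with BBMap to tomato ITAG release 3.2 and the organelle genomes, counted them with featureCounts and deposited TMM-normalised signal values per gene, 1 table per organ. Columns of a table share 1 total, so sequencing depth cannot be read from them and no counting error is given. Test: limma 3.58.1 (R 4.3.3) on log2(value + 1) over the 18 shoot libraries in 6 groups (T0 replicates 1 to 3 and 4 to 6 apart), for genes that reached 10 in 3 or more libraries, Benjamini-Hochberg adjusted p below 0.01; the code was tested on simulated data. Fold changes of low genes are understated on this scale. P-values measure the spread between pooled samples. The genes and lists were chosen with earlier results of these data known. Per-library values are given for the 10 deepest declines, up to 4 genes per list, those nearest the limits and the extremes at 30 min; unnamed genes are mostly summarised. Symbols are those in the study's tables, mostly of the closest Arabidopsis gene, and cover 65 of the 252 genes. Promoters and proteins were not analysed here. Other filters, pseudocounts, scalings, thresholds, T0 sets and each left-out library were tried.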

Additional observations from a re-analysis of the deposited data

How the results depend on the processing

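The median difference of the 252 genes between 4°C and 24°C at 30 min (log2 0.786) stayed between 0.679 and 0.963 under every alternative. The 84 genes higher at 4°C became 127 at an adjusted p below 0.05, 59 with only T0 replicates 4 to 6 and the 30 min libraries in the fit, 69 with robust moderation and 53 to 90 with 1 library left out. Without T0 replicates 3 and 6 and 30 min 4°C replicate 3 together, an alternative chosen after seeing the data, they became 168. The count of 0 lower became 1 at p below 0.05, 1 in that reduced set and 0 to 1 with 1 library left out. With only those T0 and 30 min libraries in the fit, 50 genes in place of 77 were lower than T0 at 24°C; with 1 library left out 47 to 104 were, and in the reduced set 154. At 4°C, the 2 genes lower than T0 became 1 on rescaling over nuclear genes, 1 with only those libraries in the fit, 1 with robust moderation, 7 at p below 0.05, 4 against all 6 T0 libraries, 4 in the reduced set and 1 to 4 with 1 library left out. The 3 higher became 0 with only those libraries in the fit, 8 at p below 0.05, 5 in the reduced set and 0 to 4 with 1 library left out. Over all genes the 1246 called became 693 with only those libraries in the fit, 2437 at p below 0.05, 1801 in the reduced set and 795 to 1179 with 1 library left out. The number of genes chosen, 252, was 162 with shoot T0 replicates 4 to 6 in place of 1 to 3. Only 129 of the 252 (51.2%) were among those 162. On rescaling over nuclear genes 279 were chosen, 218 of them shared with the 252. The number was 145 and 382 with limits of 0.4 and 0.6 at 24°C. It was 112 with a narrower window at 4°C, and 201 to 264 with 1 library left out. Of 42 genes followed singly at 30 min none changed direction under any alternative, and leaving out 1 library ended 1 to 7 calls. The cause of these shifts was not tested. Replicate numbers did not pair the 4°C with the 24°C libraries at 30 min, whose same-numbered deviations correlated at 0.0046, 0.125 and 0.0197. Those of T0 replicates 1 to 3 with the same-numbered 30 min libraries at 4°C correlated at 0.110, 0.365 and 0.673. Those of T0 replicates 4, 5 and 6 with 30 min 4°C replicates 1, 2 and 3 correlated at -0.0212, 0.150 and 0.529. The numbers did not match throughout: 30 min 4°C replicate 2 correlated at 0.452 with T0 replicate 1 and at 0.366 with T0 replicate 4. No comparison with T0 was fitted with the block, so a match between T0 replicate 6 and 4°C replicate 3 was not allowed for in the calls against T0. With the replicate number as a block, 119 of the 252 genes were higher and 1 lower, with a median of 0.786 and 1530 calls over all genes. Promoter motifs were not run.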

Other observations

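The 252 genes were 43.6% of the 578 genes that declined at 24°C to at most 0.5 of T0 in both organs. Of the other genes, 121 exceeded the window at 4°C in shoots while staying within it in roots, 29 exceeded it in both organs, and 50 were below it in both. JAZ1 (Solyc12g009220) was at 3.08 of T0 in shoots and 2.69 in roots at 4°C, an example of the genes above the window in both.

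Adjacent genes occurred among the 252. By their order in the ID, among genes listed for both organs, 13 pairs of neighbours (25 genes) were both included. The share of genes included was 1.81% on chromosome 6 (30 genes) and 0.466% on chromosome 11 (6 genes), the highest and lowest of the 12 chromosomes. Whether these shares differ beyond chance was not tested.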
